A study of Mus musculus with 24 samples.

Results

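The complement genes described here are 9: the C1q chains C1qa, C1qb and C1qc, the components C3, C4b, Cfb and Cfd, and the anaphylatoxin receptors C3ar1 and C5ar1. They were taken as the rows of the lung and retina count tables whose Ensembl gene maps to those symbols. All 9 were found in each table, among 36109 genes listed for lung and 36595 for retina. The study asked how loss of gasdermin D, the pore-forming executioner of pyroptosis, alters injury of newborn mouse lung and retina by high oxygen. Each tissue had 4 groups of 3 mice. In lung, wild-type and GSDMD-KO pups breathed 21% oxygen (WT-RA, KO-RA) or 85% oxygen (WT-O2, KO-O2) from postnatal day 1 to 14 and were sampled on day 15. In retina, pups of both genotypes breathed 75% oxygen from day 7 to 12 and then recovered in room air, or stayed in room air, and were sampled on day 18. GSDMD-KO mice carry a germline CRISPR/Cas9 deletion in every tissue, homozygous on a C57/B6 background, and WT mice were littermates.

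Complement is a cascade of plasma and tissue proteins that tags cells, debris and microbes. C1q recognises the target and opens the classical pathway, which runs through C4 and C2 to cleavage of C3; factor B (Cfb) and factor D (Cfd) form the alternative pathway, which amplifies C3 cleavage. The fragments C3a and C5a signal through C3ar1 and C5ar1 on myeloid cells. Liver makes most plasma complement, tissue macrophages and microglia make C1q locally, and in the developing retina and brain C1q and C3 are known for marking synapses for removal by microglia.

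Libraries held 28763661 to 29604254 estimated counts in lung and 24863257 to 29093035 in retina. Levels are CPM, counts scaled to a common library size after edgeR's TMM factor. Gsdmd lay at 40.6 to 42.3 CPM in WT-RA and 32.1 to 36.4 in WT-O2 lungs, against 22.6 to 24.8 in KO-RA and 11.7 to 16.3 in KO-O2. In retina the library labelled WT-RA replicate 2 had 0.419 CPM, below all 6 GSDMD-KO retinas (0.636 to 2.95) and far from the other WT retinas (2.70 to 5.70), so it goes against its label. KO-O2 replicate 3, at 2.95 CPM against 1.11 and 1.44 in its group, in turn lay above WT-RA replicate 3 (2.70) and WT-O2 replicate 2 (2.90). Without it the same 5 genes were called with hyperoxia in GSDMD-KO retina; reads outside the deleted stretch still count toward the gene, which limits the check of all these libraries. Summed lens markers reached 17431 CPM in the library labelled WT-RA replicate 2, 56509 in WT-RA replicate 3 and 28167 in KO-RA replicate 3, and 3.19 to 229 in the other 9 retinas. Summed hepatocyte markers were 174 CPM in lung KO-O2 replicate 1 and 1.83 to 6.62 in the other 11 lungs. The number of mice with Y-linked expression was 0 for WT-RA lungs, 1 for WT-O2, 2 for KO-RA and 3 for KO-O2, each out of 3, and in retina it was 3 in either room-air group and 1 in either hyperoxic group, so that sex is partly mixed with the groups in both tissues.

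The 3 C1q genes are neighbours on the minus strand of chromosome 4 in GENCODE's GRCm38 annotation: C1qb at chr4:136880129-136886187, C1qc at chr4:136889804-136893065 and C1qa at chr4:136895917-136898803. C4b (chr17:34728380-34743882) and Cfb (chr17:34856374-34862518) lie on chromosome 17, as does C3 (chr17:57203970-57228136). Promoters are shown for C1qb, C1qc and C3, the genes whose available windows held a match to the motifs searched below. They were thus picked for their matches and not for their changes in lung. A RefSeq (GRCm38.p6) promoter window was available here for 6 of the 9 genes, and not for C1qa, C4b and Cfb. Each line gives the 250 bases before the RefSeq transcription start on the minus strand (chr4:136886201-136886450, chr4:136892915-136893164 and chr17:57228137-57228386), with motif matches in capitals. For C1qc the RefSeq start lies inside the GENCODE gene given above, so part of its window lies within that gene.
C1qb: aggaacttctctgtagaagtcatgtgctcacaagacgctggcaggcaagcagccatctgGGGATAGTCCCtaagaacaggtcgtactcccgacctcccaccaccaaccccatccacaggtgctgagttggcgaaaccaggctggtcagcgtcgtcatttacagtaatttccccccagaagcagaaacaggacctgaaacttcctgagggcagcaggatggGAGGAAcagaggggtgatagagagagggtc
C1qc: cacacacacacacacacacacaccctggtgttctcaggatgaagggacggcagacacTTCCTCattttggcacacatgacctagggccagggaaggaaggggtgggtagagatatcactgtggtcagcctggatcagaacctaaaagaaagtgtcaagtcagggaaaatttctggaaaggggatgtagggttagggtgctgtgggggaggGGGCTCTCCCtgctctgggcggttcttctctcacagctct
C3: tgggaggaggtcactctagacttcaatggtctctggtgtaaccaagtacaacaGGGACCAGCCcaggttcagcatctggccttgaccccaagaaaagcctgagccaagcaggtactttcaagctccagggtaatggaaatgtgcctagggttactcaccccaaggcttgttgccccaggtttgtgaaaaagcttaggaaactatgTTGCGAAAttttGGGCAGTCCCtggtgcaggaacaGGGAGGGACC
The letters searched, on both strands, were GAGGAA (the PU.1 core of myeloid genes), TTGCNNAA (C/EBP), the NF-kB motif (GGGA followed after 4 free bases by CC), TTCNNNGAA (STAT) and the IRF motif (GAAA repeated after 2 free bases). GAGGAA occurred in C1qb at -30 to -25 and, as its reverse complement, in C1qc at -193 to -188, counted from the transcription start. The NF-kB letters occurred in C1qb at -191 to -182, overlapping a match on the other strand, in C1qc at -40 to -31, and in C3 at -197 to -188, -33 to -24 and -10 to -1. C3 also held the C/EBP letters at -45 to -38. Of 32817 promoter windows of this length, 23.3% held GAGGAA, 17.6% the NF-kB letters, 9.57% the C/EBP letters, 7.01% the STAT letters and 2.97% the IRF letters. None of these letters was found in the windows of Cfd, C3ar1 and C5ar1. The matches describe the sequences and nothing more.

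To compare genes, levels were divided by exon length (CPM per kb). In WT-RA lung the order was C1qb (33.8 to 44.7), C3 (22.0 to 43.5), C1qa (26.7 to 36.5), C1qc (16.2 to 21.1), Cfd (0.149 to 14.01), C4b (2.09 to 7.20), Cfb (2.70 to 4.95), C5ar1 (2.38 to 3.75) and C3ar1 (1.18 to 1.49) CPM per kb. C1qb, C3 and C1qa overlapped one another, as did Cfd, C4b, Cfb and C5ar1, whereas C1qc stood apart from both sets and C3ar1 lay below all but the lowest Cfd value. In WT-RA retina C1qb led at 6.97 to 14.7 CPM per kb, followed by C1qa (6.74 to 11.4), C1qc (4.05 to 6.88) and Cfb (3.41 to 5.00), each overlapping the next. The low end of each C1q gene is the library labelled WT-RA replicate 2, and without it these neighbours did not overlap. C4b (0.316 to 1.92), C3 (0.250 to 0.519), C5ar1 (0.09999 to 0.156) and C3ar1 (0.0743 to 0.149) were lower, and Cfd had no count in any WT-RA retina, which allows up to 3 counts a library. The lung and retina tables were processed separately, so the levels of the 2 tissues are only set side by side.

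All 3 C1q genes rose in hyperoxic lung in both genotypes. C1qa, the A chain, was at 33.4, 37.9 and 27.8 CPM in WT-RA and 66.6, 65.3 and 83.5 in WT-O2, and at 28.5, 33.4 and 30.8 in KO-RA and 52.0, 63.2 and 51.0 in KO-O2. Every hyperoxic lung was above every room-air lung. The fold change was 2.17 in WT (log2 1.12, SE 0.13, adjusted p = 1.04e-05) and 1.79 in GSDMD-KO (log2 0.84, SE 0.13, adjusted p = 0.000145), in the quasi-likelihood test of edgeR, adjusted by Benjamini-Hochberg over all 16819 genes tested. C1qb went from 39.5, 48.6 and 36.8 CPM to 82.5, 88.0 and 99.1 in WT, and from 32.8, 41.6 and 37.1 to 63.0, 74.9 and 65.9 in GSDMD-KO. C1qc went from 31.9, 40.8 and 31.2 to 69.1, 69.2 and 73.4 in WT, and from 31.2, 34.8 and 32.5 to 49.9, 65.1 and 50.2 in GSDMD-KO. Again the exposures did not overlap in either genotype. The log2 changes were 1.11 and 1.03 in WT and 0.87 and 0.75 in GSDMD-KO for C1qb and C1qc, with adjusted p from 4.52e-06 to 0.000173.

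**Figure D1:**
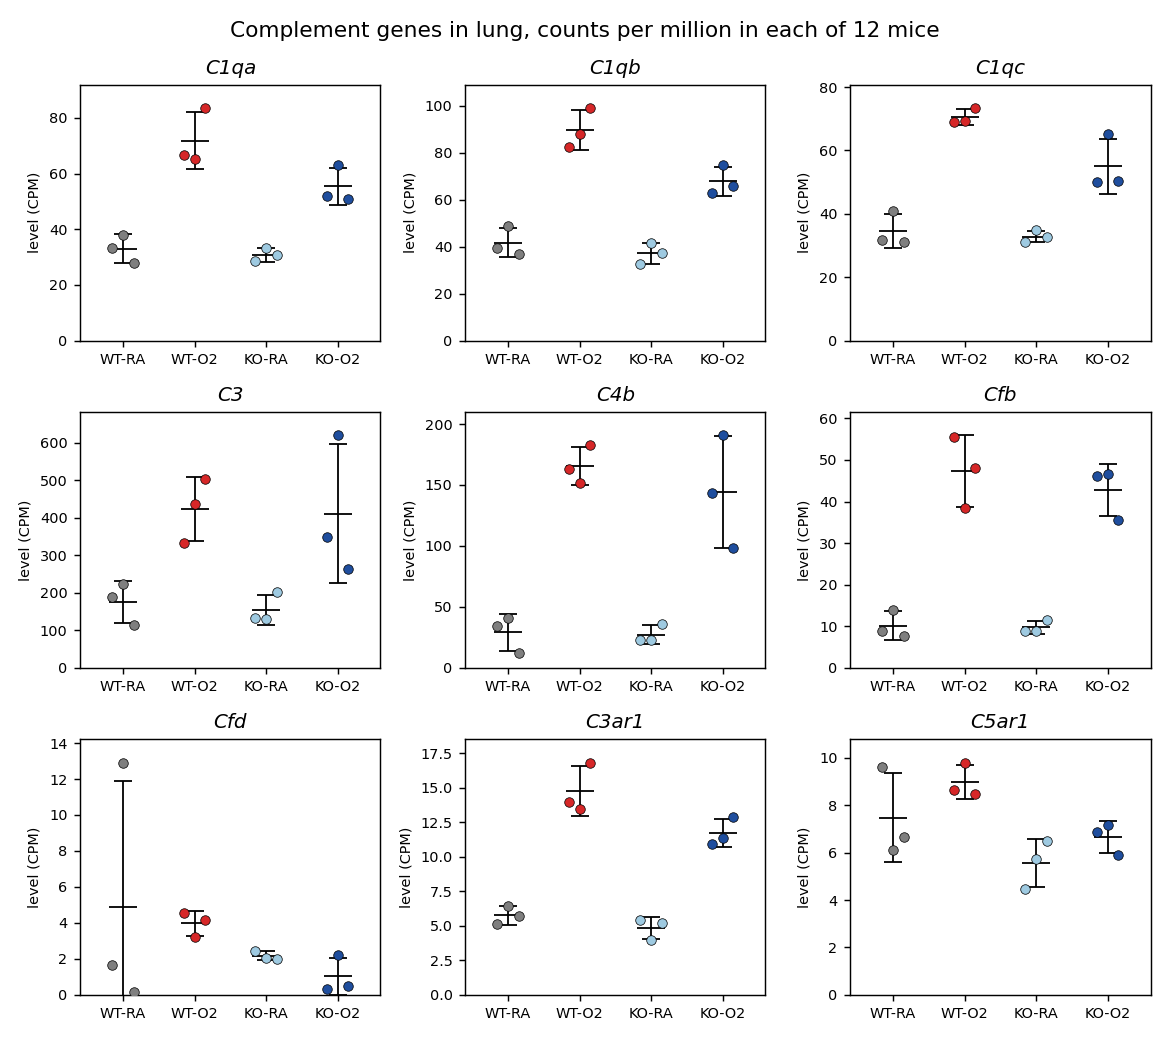
Level of each complement gene in every lung, in CPM (linear axis from 0), by group, with 3 mice a group; points are mice, the long tick is the mean and the bar is the SD, cut at 0. C1qa, C1qb, C1qc, C3, C4b, Cfb and C3ar1 are higher in every hyperoxic lung than in any room-air lung of the same genotype, while Cfd is spread by WT-RA replicate 2 at 12.9 CPM.

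Of the 9 genes, C4b and Cfb had the largest fold increases in lung. C4b, the classical-pathway component cleaved by C1s, was at 34.5, 41.0 and 11.9 CPM in WT-RA and 163, 151 and 183 in WT-O2, and at 23.0, 22.8 and 35.9 in KO-RA and 143, 191 and 98.5 in KO-O2. The groups were far apart in both genotypes, with WT-RA replicate 3 the lowest of all lungs. The fold change was 5.68 in WT (log2 2.51, SE 0.44, adjusted p = 0.00175) and 5.30 in GSDMD-KO (log2 2.41, SE 0.44, adjusted p = 0.00235). Of the 31-base words in C4b transcripts, 48.3% also occur in its paralog C4a, which was not analysed here, so C4b counts can hold C4a reads. Cfb, the serine protease of the alternative-pathway convertase, was at 8.83, 13.995 and 7.64 CPM in WT-RA and 55.6, 38.4 and 48.0 in WT-O2, and at 8.78, 8.93 and 11.6 in KO-RA and 46.2, 46.6 and 35.5 in KO-O2. Every hyperoxic value was more than double any room-air value of its genotype. The fold change was 4.65 in WT (log2 2.22, SE 0.22, adjusted p = 8.94e-06) and 4.38 in GSDMD-KO (log2 2.13, SE 0.22, adjusted p = 1.4e-05). Of the 31-base words of Cfb, 75.5% also lie in the overlapping gene Gm20547, which had 0 to 19 counts in lung and 0 to 26 in retina.

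C3, the component on which all pathways converge, was at 189, 224 and 113 CPM in WT-RA and 333, 436 and 502 in WT-O2, and at 133, 130 and 201 in KO-RA and 348, 620 and 265 in KO-O2. The exposures did not overlap in either genotype, but KO-O2 lungs spread widely (411 ± 186 CPM, SD, n = 3). C3 rose 2.42-fold in WT (log2 1.27, SE 0.36, adjusted p = 0.0196) and 2.66-fold in GSDMD-KO (log2 1.41, SE 0.36, adjusted p = 0.0133). Lung KO-O2 replicate 1, with its hepatocyte markers, held 348 CPM of C3, and the part of liver RNA in the C3 values was not tested. Without that library the same 4 genes were called in GSDMD-KO lung. Without KO-O2 replicate 2 the C3 log2 change was 1.00, just under the fold of 2.

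Cfd, the protease that cleaves factor B and is also the adipocyte product adipsin, was at 1.64, 12.9 and 0.138 CPM in WT-RA, 4.53, 3.20 and 4.19 in WT-O2, 2.46, 2.07 and 2.00 in KO-RA and 0.350, 2.23 and 0.502 in KO-O2. WT-RA replicate 2 held the highest value of all 12 lungs and WT-RA replicate 3 the lowest. The log2 difference between exposures was -0.30 in WT (SE 1.07, adjusted p = 0.845) and -1.09 in GSDMD-KO (SE 1.23, adjusted p = 0.526), and neither passed the test. Without WT-RA replicate 2 the WT difference turned to 2.16 with adjusted p = 0.0714, so that library decides it. Summed adipocyte markers were also highest there, at 22.1 CPM against 5.07 to 14.2 in the other 11 lungs; their part in the result was not tested. All 7 adipocyte markers had counts, and Lep, a defining marker, was close to 0 (0 to 5 counts).

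Of the receptors, C3ar1 rose in hyperoxic lung and C5ar1 did not pass the test. C3ar1, the receptor of C3a, was at 5.10, 6.43 and 5.74 CPM in WT-RA and 13.9, 13.5 and 16.8 in WT-O2, and at 5.40, 3.96 and 5.19 in KO-RA and 11.0, 11.4 and 12.9 in KO-O2. The exposures did not overlap in either genotype. It rose 2.56-fold in WT (log2 1.36, SE 0.15, adjusted p = 5.28e-06) and 2.42-fold in GSDMD-KO (log2 1.27, SE 0.15, adjusted p = 1.24e-05). C5ar1, the receptor of C5a, was at 9.63, 6.12 and 6.67 CPM in WT-RA, 8.66, 9.81 and 8.48 in WT-O2, 4.48, 5.72 and 6.48 in KO-RA and 6.89, 7.19 and 5.89 in KO-O2. Its exposures overlapped in both genotypes, with log2 differences of 0.27 (95% interval -0.12 to 0.65, adjusted p = 0.258) and 0.26 (-0.13 to 0.65, adjusted p = 0.286).

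In all, 7 of the 9 genes were called higher with hyperoxia in WT lung (at least 2-fold, p under 0.05 and adjusted p under 0.1) and 4 in GSDMD-KO lung, namely C3, C4b, Cfb and C3ar1. The same call reached 5.04% of the 16819 genes tested in WT and 4.57% in GSDMD-KO. Without the fold threshold 7 of 9 passed upward in each genotype, against 24.5% of all genes in WT and 23.3% in GSDMD-KO, and none passed downward, against 24.7% and 23.4%. The C1q genes thus passed the adjusted p in GSDMD-KO lung with folds of 1.68 to 1.83, below the threshold. The median log2 change of the 9 genes was 1.12 in WT and 0.87 in GSDMD-KO, beside -0.01 and -0.01 over all genes tested. The WT call of C1qc lay at the fold threshold: its log2 change was 0.97 without WT-RA replicate 1, 0.96 without WT-RA replicate 3 and 0.99 with a term for Y-linked expression, each with an adjusted p under 0.1 and a fold under 2. These are whole-tissue samples, in which more cells of a type and more RNA per cell cannot be told apart.

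Of 11 macrophage markers tested in lung, 6 passed upward and 3 downward in each genotype, beside 24.5% of all genes upward and 24.7% downward in WT and 23.3% and 23.4% in GSDMD-KO, so that the downward share was near that of all genes. Cd68 rose in WT (log2 1.03, adjusted p = 5.61e-05) and in GSDMD-KO (1.33, adjusted p = 7.21e-06), as did the scavenger receptor gene Marco (1.30 and 2.35, adjusted p = 0.000722 and 1.29e-05), whereas Siglecf, a marker of resident alveolar macrophages, fell (-1.82 and -1.74, adjusted p = 3.05e-05 and 8.08e-05). The summed level, of which Lyz2 made the most, was 2479 to 3574 CPM in WT-RA and 1958 to 2215 in WT-O2, and 2433 to 2606 in KO-RA and 1672 to 1943 in KO-O2. The sum was thus lower in hyperoxic lungs while C1q, Cd68 and Marco were higher. No macrophage marker was at 0 in all lungs. Of 10 genes used as microglial markers, 6 passed upward and 1 downward in each genotype. Other cell types' markers moved in the same comparisons. Of 5 endothelial markers 3 passed downward in WT, and in GSDMD-KO 1 passed upward and 2 downward. They summed to 3322 to 3715 CPM in WT-RA and 2558 to 2962 in WT-O2, which did not overlap. In GSDMD-KO the sums were 3026 to 3124 in KO-RA and 2335 to 3055 in KO-O2, with overlap. Of 6 fibroblast markers 4 passed upward and 1 downward in each genotype, and they summed to 4518 to 6522 CPM in WT-RA and 6492 to 7440 in WT-O2, and to 5580 to 6652 in KO-RA and 6169 to 7573 in KO-O2, with overlap in both genotypes. Of 5 alveolar type 2 markers 3 passed downward in WT and 4 in GSDMD-KO, and of 7 erythroid markers 6 and 3 did. Of 5 hepatocyte markers tested, 2 passed upward in WT and 5 in GSDMD-KO. Their sum was 174 CPM in KO-O2 replicate 1, against 4.21 and 4.32 in the other KO-O2 lungs and 1.83 to 3.29 in KO-RA, so 1 library dominates that group's level. The part of any of these cell types in the changes of the complement genes was not tested.

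**Figure D2:**
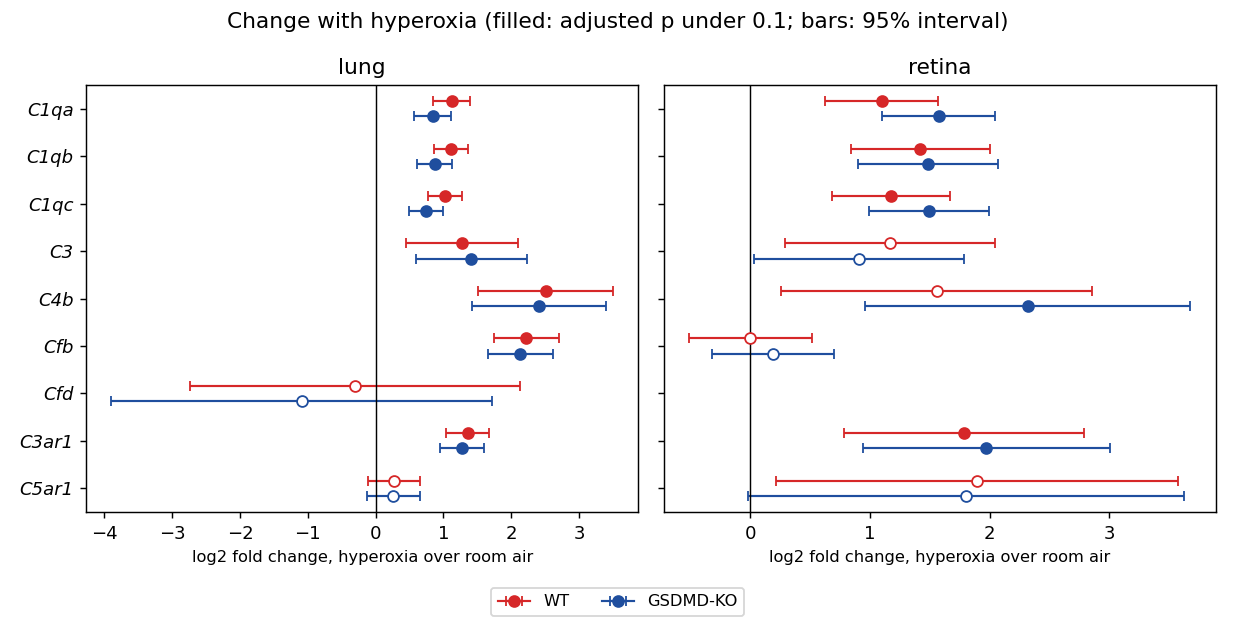
Log2 fold change of each complement gene with hyperoxia in WT (red) and GSDMD-KO (blue), lung at left and retina at right; points are estimates, bars are 95% intervals from edgeR, and filled points passed an adjusted p under 0.1. C4b and Cfb lead in lung at 2.13 to 2.51, Cfb lies near 0 in retina, and Cfd was not tested in retina.

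Between genotypes, no complement gene differed in lung beyond the adjusted threshold. In hyperoxia, C1qa was 55.4 ± 6.75 CPM in KO-O2 and 71.8 ± 10.2 in WT-O2, C1qb 67.9 ± 6.22 and 89.9 ± 8.43, and C1qc 55.1 ± 8.68 and 70.5 ± 2.45 (SD, n = 3). For these genes every KO-O2 lung was below every WT-O2 lung. The log2 differences were -0.37 for C1qa (95% interval -0.64 to -0.10), -0.40 for C1qb (-0.65 to -0.16) and -0.36 for C1qc (-0.60 to -0.11), with adjusted p in edgeR's quasi-likelihood test of 0.615, 0.501 and 0.591. C3ar1 (log2 -0.33, adjusted p = 0.774) and C5ar1 (log2 -0.43, adjusted p = 0.764) were also lower in every KO-O2 lung than in any WT-O2 lung. The share of all genes that separate in this way was not counted in any comparison, so such separations are descriptions only. C3, C4b and Cfb overlapped between the genotypes, with log2 differences of -0.05, -0.20 and -0.15. Cfd was lower in every KO-O2 lung (log2 -1.96, SE 1.202, adjusted p = 0.872), and so were summed adipocyte markers, at 5.07 to 7.40 CPM in KO-O2 and 9.98 to 13.98 in WT-O2, with a negative difference for all 6 tested and none past the adjusted p. Of the 9 genes, 5 had an unadjusted p under 0.05 (C1qa, C1qb, C1qc, C3ar1 and C5ar1) and 0 passed the adjusted p in edgeR or in DESeq2, where 0.0416% of all genes passed in edgeR in either direction. At the unadjusted threshold there were 1045 of all 16819 genes, and the 5 became 3 without WT-O2 replicate 3 (C1qb, C1qc and C5ar1). The median log2 difference was -0.36 for the 9 genes and -0.00 for all genes. No macrophage marker passed in this comparison, and all 11 had a negative difference, with a median of -0.20. Erythroid markers had a positive difference for all 7 tested, with a median log2 of 2.59 and none past the adjusted p. They summed to 1731 to 2491 CPM in WT-O2, and to 15935, 18008 and 3562 in KO-O2 replicates 1, 2 and 3. The KO-O2 lungs were thus unlike one another in these markers. The part of these cell types in the genotype values was not tested.

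In room air C5ar1 differed in lung by a log2 of -0.43 (95% interval -0.82 to -0.03, adjusted p = 0.434) and Cfd by -1.17 (-3.70 to 1.35, adjusted p = 0.801), and the groups overlapped for both. C1qa, C1qb and C1qc differed by -0.10, -0.16 and -0.08. Again 0 of 9 passed in edgeR and in DESeq2, where 0.488% of all genes passed in edgeR. At an unadjusted p under 0.05 there was 1 of 9, beside 1762 of all 16819 genes, which is close to the background. The test of whether hyperoxia acted differently in the genotypes passed for 0 of 9 genes in either tool, with 0 at an unadjusted p under 0.05, where 0.00595% of all genes passed in edgeR. With every mouse, 1130 of all 16819 genes had an unadjusted p under 0.05, a number not given for fits that leave a mouse out. Without WT-RA replicate 2, 4 of 9 had an unadjusted p under 0.05 (C1qa, C1qb, C1qc and Cfd), with adjusted p from 0.720 to 0.850. With all mice, its estimates for C1qa, C1qb and C1qc were -0.28 (95% interval -0.66 to 0.11), -0.24 (-0.60 to 0.11) and -0.28 (-0.63 to 0.07), so a call of C1q at 2-fold in WT and not in GSDMD-KO is not a shown difference. For C4b the interval of -1.44 to 1.24 leaves room for large differences in either direction.

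In retina, C1q rose in both genotypes. C1qa was at 11.9, 7.01 and 11.4 CPM in WT-RA and 17.97, 20.02 and 26.7 in WT-O2, and at 8.69, 7.23 and 6.87 in KO-RA and 22.9, 25.7 and 19.2 in KO-O2. The value of 7.01 belongs to the library labelled WT-RA replicate 2, and no hyperoxic retina overlapped a room-air retina of its genotype. The fold change was 2.14 in WT (log2 1.096, SE 0.21, adjusted p = 0.0242 over 19173 genes tested) and 2.97 in GSDMD-KO (log2 1.57, SE 0.22, adjusted p = 0.00492). C1qb was at 14.9, 7.59 and 15.98 CPM in WT-RA and 31.2, 28.3 and 43.5 in WT-O2, and at 9.67, 10.2 and 11.9 in KO-RA and 30.2, 35.3 and 23.5 in KO-O2. C1qc was at 13.3, 7.81 and 12.5 in WT-RA and 22.2, 20.9 and 32.8 in WT-O2, and at 7.91, 9.89 and 10.2 in KO-RA and 24.5, 30.97 and 23.5 in KO-O2. Neither gene's exposures overlapped. The log2 changes were 1.42 and 1.18 in WT (adjusted p = 0.0196 and 0.0230) and 1.49 and 1.49 in GSDMD-KO (adjusted p = 0.0150 and 0.00777). Without the library labelled WT-RA replicate 2 the WT changes of C1qa, C1qb and C1qc were 0.89, 1.15 and 0.97 with adjusted p = 0.0710, 0.0456 and 0.0728. C1qa and C1qc thus no longer reached a fold of 2. Over 12 alternatives the WT call of C1qa held in 8 and that of C1qc in 9. C1qa did not pass with a term for Y-linked expression. Neither gene was called in WT without the lens-rich retinas, a fit with 1 WT-RA retina.

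**Figure D3:**
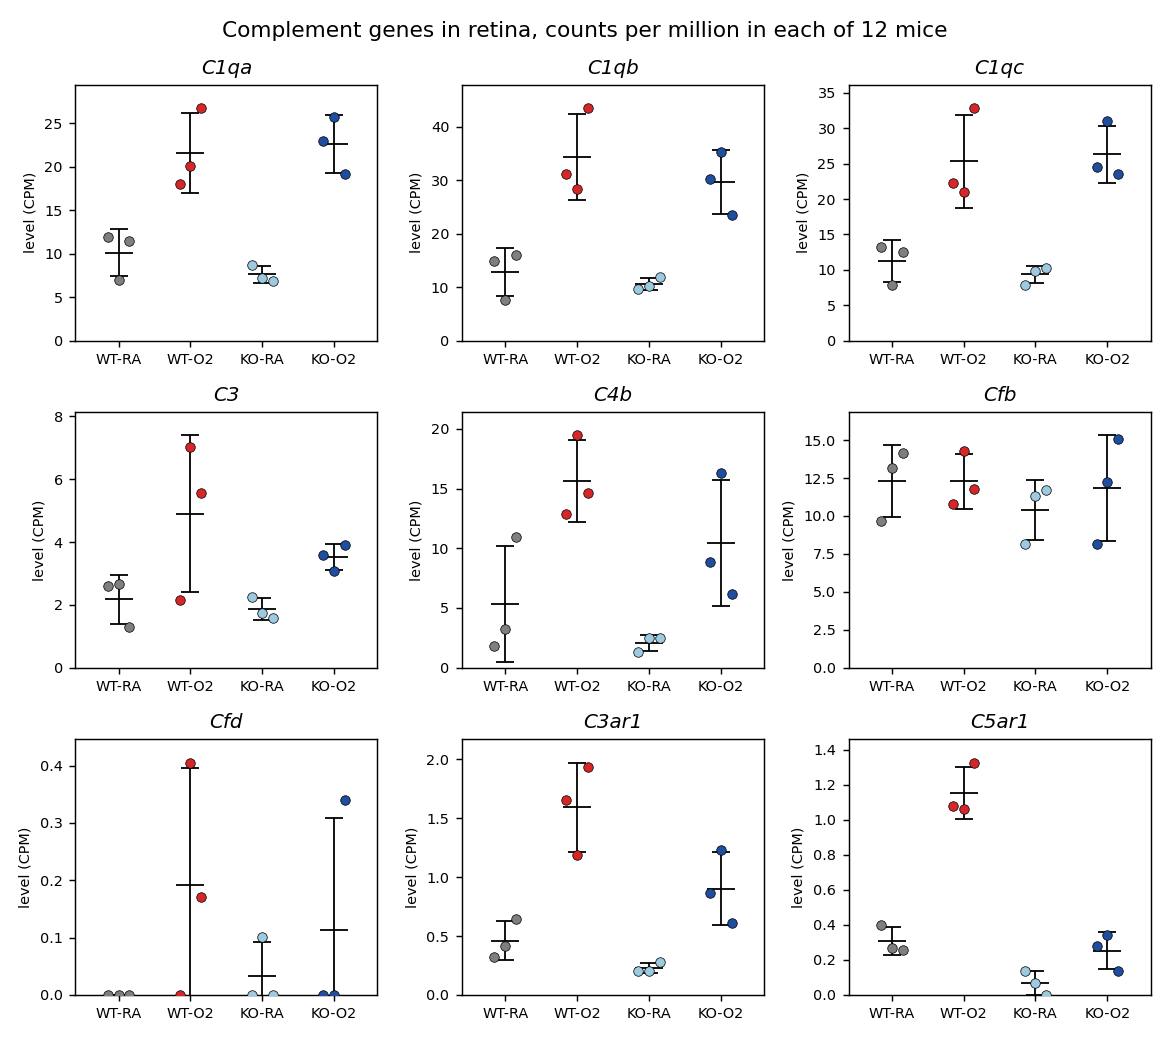
Level of each complement gene in every retina, in CPM (linear axis from 0), by group, with 3 mice a group; points are mice, the long tick is the mean and the bar is the SD. The C1q genes separate by exposure in both genotypes, Cfb does not, and C5ar1 is highest in the 3 WT-O2 retinas at 1.06 to 1.33 CPM.

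C4b and C3 were less certain in retina. C4b was at 1.80, 3.28 and 10.9 CPM in WT-RA and 12.9, 19.5 and 14.6 in WT-O2, and at 1.32, 2.49 and 2.46 in KO-RA and 8.81, 16.3 and 6.17 in KO-O2. The value of 10.9 comes from WT-RA replicate 3, the retina with the most lens RNA, and even so the exposures did not overlap in either genotype. The increase passed the test in GSDMD-KO (4.99-fold, log2 2.32, SE 0.61, adjusted p = 0.0657), and in WT the log2 difference of 1.56 (SE 0.59) did not (adjusted p = 0.199). The GSDMD-KO call held in 7 of 12 alternatives, with log2 changes of 1.84 to 2.59 and adjusted p up to 0.232. Leaving out WT-RA replicate 3 gave 2.62 in WT with adjusted p = 0.0199, and leaving out all 3 retinas over 1000 CPM of lens markers gave 3.11 with adjusted p = 0.0646, a fit with 1 WT-RA retina that is assumed to vary like the rest. C3 was at 2.60, 2.67 and 1.28 CPM in WT-RA and 2.15, 7.02 and 5.55 in WT-O2, and at 2.26, 1.75 and 1.59 in KO-RA and 3.57, 3.08 and 3.90 in KO-O2. It overlapped between exposures in WT and not in GSDMD-KO, and the log2 differences of 1.17 (SE 0.40, adjusted p = 0.159) and 0.91 (SE 0.40, adjusted p = 0.230) did not pass.

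Cfb showed no difference between exposures in retina. It was at 9.64, 13.2 and 14.1 CPM in WT-RA and 10.8, 14.3 and 11.8 in WT-O2, and at 8.15, 11.3 and 11.7 in KO-RA and 8.15, 12.2 and 15.1 in KO-O2. All groups overlapped, with log2 differences of -0.00 in WT (95% interval -0.51 to 0.51) and 0.19 in GSDMD-KO (-0.32 to 0.70). Beside the lung values of 2.22 and 2.13 these intervals end well below, although the change was not tested between tissues. Cfd had 0 to 13 counts in any retina (0 to 0.405 CPM), under the level that edgeR's filter required, and was not tested.

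The receptor genes were low in retina. C3ar1 was at 0.320, 0.419 and 0.642 CPM in WT-RA and 1.65, 1.19 and 1.94 in WT-O2, and at 0.203, 0.202 and 0.278 in KO-RA and 0.868, 1.23 and 0.611 in KO-O2. No hyperoxic retina overlapped a room-air retina of its genotype. The increase was 3.44-fold in WT (log2 1.78, SE 0.46, adjusted p = 0.0679) and 3.92-fold in GSDMD-KO (log2 1.97, SE 0.47, adjusted p = 0.0434). The call of C3ar1 held in 4 of 12 alternatives in WT, with adjusted p up to 0.215, and in 9 of 12 in GSDMD-KO, with adjusted p up to 0.175. C5ar1 was at 0.400, 0.267 and 0.257 CPM in WT-RA, 1.08, 1.06 and 1.33 in WT-O2, 0.135, 0.0673 and 0 in KO-RA and 0.278, 0.342 and 0.136 in KO-O2, which is 0 to 39 counts a library. Its log2 differences of 1.89 in WT (SE 0.77, adjusted p = 0.228) and 1.80 in GSDMD-KO (SE 0.83, adjusted p = 0.252) did not pass, although the exposures did not overlap in WT and, by the narrowest margin, in GSDMD-KO. C5ar1 entered the test only through the WT-O2 retinas and C3ar1 through the hyperoxic groups, so that both were tested because they were high there.

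Of the 6 genes over the filter's level in every retina, 3 were called higher in WT (C1qa, C1qb and C1qc) and 4 in GSDMD-KO (these and C4b), and the same genes passed without the fold threshold. C3ar1 was also called in both genotypes, which makes 4 and 5 of the 8 genes tested, but it is left out of the comparison with all genes since it was tested for being high in hyperoxia. Over all genes the call upward reached 1.77% in WT and 1.64% in GSDMD-KO, and the adjusted p alone 3.11% and 4.38% upward and 2.05% and 3.44% downward, where no complement gene of the 8 passed. The WT count of 4 rests on single libraries: it was 1 without the library labelled WT-RA replicate 2 and 1 without WT-O2 replicate 3 (C1qb in each), and 2 with a term for Y-linked expression (C1qb and C1qc). In GSDMD-KO the count of 5 was 3 without KO-RA replicate 1, KO-RA replicate 2 or KO-O2 replicate 2 (C1qa, C1qb and C1qc in each). DESeq2 called 7 of 8 in WT (C1qa, C1qb, C1qc, C3, C4b, C3ar1 and C5ar1) and the same 5 in GSDMD-KO. These counts include C3ar1 in both genotypes and C5ar1 in WT, which were tested for being high in hyperoxia. No DESeq2 share of all genes is given, so they are not compared with the background.

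Microglia are the resident macrophages of retina, and the sum of their markers was higher with hyperoxia. The 10 microglial markers summed to 50.9 to 68.1 CPM in WT-RA and 72.8 to 101 in WT-O2, and to 55.2 to 66.8 in KO-RA and 77.0 to 94.0 in KO-O2. The exposures did not overlap. Of the 10, 2 passed upward in WT and 4 in GSDMD-KO, and none downward, beside 3.11% and 4.38% of all genes upward, and no marker was at 0 in all retinas. Trem2, a microglial lipid receptor gene, rose in WT (log2 1.43, adjusted p = 0.0876) and GSDMD-KO (1.72, adjusted p = 0.0400), and Cx3cr1, the fractalkine receptor gene, in WT (0.95, adjusted p = 0.0249) and GSDMD-KO (1.03, adjusted p = 0.0152). P2ry12, a marker of resting microglia, was at a mean of 6.00 CPM in WT-RA and 5.81 in WT-O2, and 6.38 in KO-RA and 7.22 in KO-O2, and passed in neither genotype (adjusted p = 0.974 and 0.861). Endothelial markers were higher too: the 5 summed to 80.0 to 96.8 CPM in WT-RA and 152 to 174 in WT-O2, and to 97.7 to 108 in KO-RA and 127 to 141 in KO-O2, with 4 past the adjusted p upward in WT and 3 in GSDMD-KO, none downward and none at 0 in all retinas. The vascular cadherin gene Cdh5 rose by a log2 of 1.52 in WT (adjusted p = 0.00294) and 0.95 in GSDMD-KO (adjusted p = 0.0225). Retinal pigment epithelium markers summed to 203 to 599 CPM in WT-RA and 93.0 to 247 in WT-O2, which overlapped, and to 320 to 2650 in KO-RA and 95.7 to 259 in KO-O2, with none of 5 past the adjusted p. Of 6 markers of Mueller glia and astrocytes, 1 passed upward in WT and 2 in GSDMD-KO, and 2 downward in each. The part of any of these cell types in the retinal C1q and C4b changes was not tested.

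**Figure D4:**
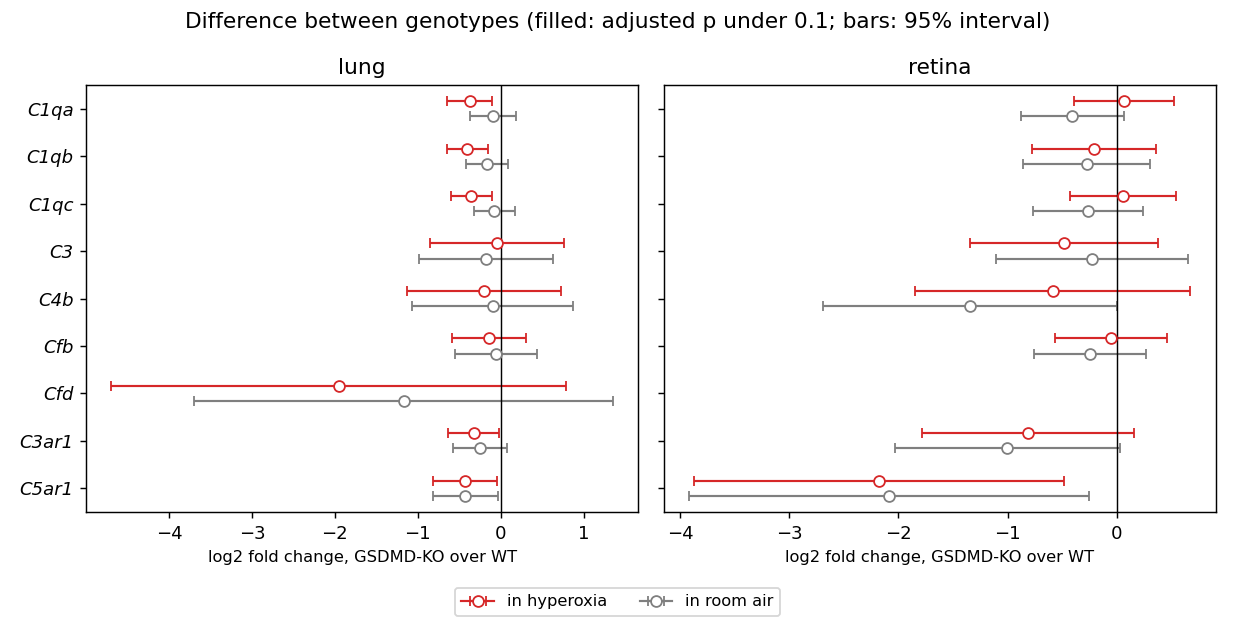
Log2 fold change of each complement gene, GSDMD-KO over WT, in hyperoxia (red) and in room air (grey), lung at left and retina at right; bars are 95% intervals from edgeR, and filled points would have passed an adjusted p under 0.1. No point is filled, and the lung C1q genes in hyperoxia lie at -0.36 to -0.40.

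Between genotypes in retina, 0 of 8 genes passed in hyperoxia and 0 of 8 in room air, in edgeR or in DESeq2. At an unadjusted p under 0.05 there was 1 in hyperoxia (C5ar1) and 2 in room air (C4b and C5ar1), beside 2412 and 2427 of all 19173 genes, so that 1 of 8 is the background. Those numbers over all genes come from the fit with all mice, and none is given for fits that leave a mouse out. Without the library labelled WT-RA replicate 2 the room-air number was 5, with adjusted p from 0.389 to 0.461. The 5 were C4b, C5ar1, C1qa, C1qb and C1qc, the C1q genes at log2 -0.61, -0.55 and -0.47. The room-air number was 1 without WT-RA replicate 3 or KO-RA replicate 1, and 0 without KO-RA replicate 2 or KO-RA replicate 3. In hyperoxia the number was 2 without WT-O2 replicate 1 and 0 without WT-O2 replicate 3 or KO-O2 replicate 3. Over all genes 1.27% passed in edgeR in hyperoxia and 0.00522% in room air. Of 5 erythroid markers tested in hyperoxia, 2 were called lower in GSDMD-KO and 2 had a positive difference, with a median log2 of -1.14. Erythroid markers summed to 602 to 915 CPM in WT-O2 and 221 to 269 in KO-O2, and their part in the genotype values was not tested. C5ar1 was tested only for being high in WT-O2. With the library labelled WT-RA replicate 2 counted as WT, C5ar1 was lower in every GSDMD-KO retina than in any WT retina of the same exposure. Its log2 difference was -2.18 in hyperoxia (95% interval -3.87 to -0.49, adjusted p = 0.257) and -2.09 in room air (-3.92 to -0.26, adjusted p = 0.338). C1qa, C1qb and C1qc differed in hyperoxia by 0.07 (-0.39 to 0.53), -0.21 (-0.77 to 0.35) and 0.05 (-0.43 to 0.54), with overlapping groups. C3ar1 was likewise lower in every KO-RA than in any WT-RA retina (log2 -1.005, adjusted p = 0.403), again with the library labelled WT-RA replicate 2 counted as WT. How many of all genes separate like this was not counted. C4b differed in room air by -1.35 (-2.69 to -0.00), which went to 0.07 without the lens-rich retinas. The test of a different response to hyperoxia passed for 0 of 8 in either tool, with 0 at an unadjusted p under 0.05, where 0.00522% of all genes passed in edgeR; for C1qa the estimate was 0.48 (95% interval -0.18 to 1.14, adjusted p = 0.602).

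The other complement genes were taken from a list of 41, of which 40 were listed, 34 tested in lung and 25 in retina. In lung 13 passed upward and 7 downward in WT, and 15 and 8 in GSDMD-KO, with medians of 0.21 and 0.10. These are 13 and 7 of 34 beside 24.5% and 24.7% of all genes in WT, and 15 and 8 of 34 beside 23.3% and 23.4% in GSDMD-KO, so that the downward counts were near the share of all genes. The upward counts include Vsig4 in both genotypes, and the downward count in GSDMD-KO includes C8a. Each of these genes passed the filter only through the exposure where it was high, so neither adds support to the counts. Of the 9 tested recognition and protease genes of the classical and lectin pathways, 5 passed upward and 1 downward in each genotype. C1ra, the protease that C1q activates, rose 2.29-fold in WT and 2.01-fold in GSDMD-KO (adjusted p = 2.71e-06 and 1.48e-05), and its partner C1s1 1.56-fold and 1.44-fold (adjusted p = 0.00071 and 0.00308). C2, the partner of C4 in the convertase, rose 2.34-fold and 2.31-fold (adjusted p = 0.0171 and 0.0190), and the lectin-pathway protease gene Masp1 6.50-fold and 5.73-fold. The ficolin gene Fcna rose 4.70-fold and 4.99-fold, and the collectin gene Colec10 fell by 1.81 and 2.45 on the log2 scale. 

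Regulators and terminal components of lung went both ways. Of 13 regulators 4 passed upward and 3 downward in WT, and 5 and 2 in GSDMD-KO, close to the shares of all genes in both directions in WT. Cd55, which dissolves convertases on host cells, rose 2.12-fold and 2.02-fold, clusterin (Clu), which blocks the terminal complex, 3.35-fold and 3.40-fold, and factor I (Cfi) 2.16-fold in GSDMD-KO, whereas vitronectin (Vtn) fell by 2.99 and 2.11 on the log2 scale and Cd46, a cofactor for C3b cleavage, by 0.88 and 0.78. Serping1, the C1 inhibitor, rose 1.499-fold and 1.38-fold. Of 5 terminal components tested, Hc, which encodes C5, rose 1.55-fold in WT and 1.45-fold in GSDMD-KO; C6 fell in both (log2 -0.35 and -0.66), and C7 fell in GSDMD-KO (log2 -0.58). C8a was called lower in GSDMD-KO (log2 -1.88), but with 3 to 8 counts in KO-O2 it was tested only through the room-air groups, so that call is no support. Of 6 other receptors, the C3 receptor subunit Itgam rose 1.57-fold and 1.95-fold, its relative Itgax 1.28-fold and 1.81-fold and their partner Itgb2 1.60-fold in GSDMD-KO, and Cr2 of B cells (log2 -1.56 and -1.48) and the decoy receptor C5ar2 (log2 -0.74 and -1.56) fell. Vsig4, the macrophage receptor for C3b, was at 0 to 0.0336 CPM in WT-RA and 0.341 to 0.608 in WT-O2, and at 0 to 0.0678 in KO-RA and 0.234 to 0.630 in KO-O2, with 0 to 2 counts in room air and 7 to 18 in hyperoxia. It passed the filter only through the hyperoxic groups, so its call in both genotypes is no support. In the genotype comparisons, C6 was lower in KO-O2 than in WT-O2 (log2 -0.55, adjusted p = 0.0905), and in room air Cd59a was higher (0.69, adjusted p = 0.0609) and the integrin genes Itgax (-0.71, adjusted p = 0.0856) and Itgb2 (-0.57, adjusted p = 0.0927) lower in GSDMD-KO. No other of the 34 passed in either comparison. These adjusted p lay close to the threshold, and alternative fits were not examined for these genes.

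In retina 2 of 25 passed upward in WT and 1 in GSDMD-KO, none downward, beside 3.11% and 4.38% of all genes upward, so that the list as a whole was near the background. Serping1, the C1 inhibitor that stops C1r and C1s, was at 9.40, 10.1 and 19.2 CPM in WT-RA and 26.8, 32.4 and 41.9 in WT-O2, and at 5.58, 9.85 and 8.78 in KO-RA and 27.1, 37.6 and 14.3 in KO-O2. It rose 2.61-fold in WT (adjusted p = 0.0882) and 3.26-fold in GSDMD-KO (adjusted p = 0.0392). Itgam rose 2.05-fold in WT (adjusted p = 0.0909). Alternative fits were examined for the 9 genes only, so whether the Serping1 and Itgam calls hold in them was not tested. C2 was at 8.36 to 17.04 CPM in WT-RA and 9.74 to 13.6 in WT-O2. The median over the 25 was 0.07 in WT and 0.08 in GSDMD-KO.

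The C1q genes followed one another across mice. Over the 12 lungs Pearson's r of log2 CPM was 0.987 to 0.992 between them, and after each group's mean was removed 0.831 to 0.908; in retina the values were 0.966 to 0.982 and 0.765 to 0.934. C3 and C4b had r = 0.960 over the lungs and 0.869 within groups, against 0.496 and -0.410 over the retinas. These are descriptions, since mice of a group share an exposure and each library gives all its genes. Among the 12143 lung genes that averaged 5 CPM or more, those most like the C1q mean over the 12 lungs were Timm17a (r = 0.984), Cyp7b1 (0.981) and the lysosomal gene Hexa (0.978). Those most like C4b were the matrix gene Dcn (0.986), Bicc1 (0.984) and the oncostatin M receptor gene Osmr (0.982), and those most like C3 were Mvp (0.950), Aldh1a2 (0.949) and Magi1 (0.944). For Cfb they were Myof (0.991), Zfyve28 (0.987) and Myo5a (0.986). For lung Cfd they were Car3 (0.926), Cfap53 (0.874) and the fat-cell gene Fabp4 (0.852). Over the 12 retinas the genes most like the C1q mean were Sparc (0.974), Lcn2 (0.966) and Cdh13 (0.964), and those most like C4b were S100a11 (0.973) and the basement-membrane collagens Col4a2 (0.967) and Col4a1 (0.961). For retinal C3 they were Frmd6 (0.949), Igsf11 (0.874) and Mthfd1l (0.863), and for retinal Cfb they were Zfp579 (0.860), Lpcat3 (0.858) and Ptp4a2 (0.843).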

How the data were processed

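RNA from 12 lungs and 12 retinas was sequenced. The authors quantified reads with kallisto against mouse transcripts and deposited estimated counts per gene, with no coordinates; the submitters' processing notes name mm10 and the study's methods another build. Of values above 0, 55.8% in lung and 2.20% in retina were whole (within 0.01), so the retina table may have been scaled by length. Counts were rounded. Genes with 10 counts at the median library in 3 samples (filterByExpr) were kept and tested with edgeR 4.0.16 (TMM, quasi-likelihood F-test, robust), 12 samples per tissue in 1 fit; DESeq2 1.42.0 was an alternative. The code of the main fit was run on simulated counts with the same spread for every gene and changes only in well-counted genes. Those counts held no lens-rich or liver-marked libraries, so the run checks the code and not its fitness for these data. Replicates are separate mice, and no pair of libraries agreed within sampling noise. A call needed a fold of 2, p under 0.05 and adjusted p under 0.1. Standard errors are the log2 fold change over the root of F, with intervals on edgeR's degrees of freedom. Members, gene lists and tests were chosen with earlier results of these data known. All 9 genes, the other complement genes called in at least 1 comparison and the 3 genes most like each pattern were named, with some others that passed the adjusted p alone. Macrophage, microglia, adipocyte, hepatocyte, lens and Y-linked lists were summed as checks.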

Additional observations from a re-analysis of the deposited data

Results flagged for a closer look

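Cr1l, a membrane regulator of C3 convertases, had lower levels in every hyperoxic than in any room-air lung of GSDMD-KO mice and higher levels in every hyperoxic than in any room-air retina. The means differed by -5.27 CPM in lung and by 4.05 CPM in retina. Neither difference passed edgeR's test (log2 -0.12, adjusted p = 0.199, and log2 0.44, adjusted p = 0.242). In WT mice Cr1l fell in lung (log2 -0.28, adjusted p = 0.00609), and in retina the WT exposures overlapped (log2 0.32, adjusted p = 0.445). The difference between tissues was not tested, and it was found among the 9 genes and the other complement genes examined the same way.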

How the results depend on the processing

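Lung counts of called genes were 6 to 8 in WT and 3 to 4 in GSDMD-KO when each mouse was left out. Without the fold threshold the GSDMD-KO lung count was 7. In WT retina the count of 4 became 7 with DESeq2, 2 with a term for Y-linked expression, 2 without the 3 lens-rich retinas (both of these added after seeing the data), and 1 to 5 when each mouse was left out; in GSDMD-KO retina it was 3 to 5. RLE size factors and no filter on low counts left the same genes called. A fit of only the 6 samples compared also gave equal counts, but in WT retina C3ar1 lost its call (adjusted p = 0.112) and C5ar1 gained one (0.0965). The genotype and interaction counts were 0 under every alternative run. Of 1057 single-gene values compared, 27 lost and 7 gained a call, and 1 reversed: Cfd in WT lung, whose log2 change ranged from -0.87 to 2.16 when each WT-RA or WT-O2 mouse was left out. Another 68 changed sign with no call under either setting. The causes were not tested. Summing C4a with C4b was not run, since C4a was not listed. No paired analysis was possible because the replicate numbers are accession order only. Depth limits C5ar1 and C3ar1 in retina, at 0 to 57 counts.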
